A study of Mus musculus with 8 samples.

Results

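The thymic epithelium of wild-type C57BL/6 mice was compared between its compartments: 2 libraries of medullary thymic epithelial cells (mTECs) were set against 4 libraries of cortical thymic epithelial cells (cTECs). These are 6 of the 8 libraries of the series, chosen by population and genotype as labelled, and the 2 Mcl1 knockout libraries were left out. No treatment was applied per the labels, and age is not given there. Frozen cell pellets were the source of the RNA, which was amplified as full-length cDNA with a low-input kit and sequenced as paired ends. How the cells were isolated, and whether each library holds 1 animal or a pool, is not given in the sources used here. The libraries of a group are called biological replicates by the submitters, but p-values below measure only the spread between these libraries.

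Thymic epithelial cells form the scaffold on which T cells are made. Cortical cells attract and sustain immature thymocytes and present peptides cut by their own set of proteases, which drives positive selection. Medullary cells express genes of many other tissues, under the control of regulators such as Aire and Fezf2, and present those products so that self-reactive T cells are deleted or turned into regulatory cells. The comparison asks which genes set the compartments apart.

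Total counts were 13300969 to 18338441 in the cTEC libraries and 19171953 and 18671044 in the mTEC libraries. The first principal component of log2 expression held 65.7% of the variance and put mTEC 1 and 2 at 112.5 and 132.6 and the cTEC libraries at -7.053 to -96.38. cTEC 1 was the cTEC library nearest to the mTECs. It also stood apart in its immediate-early genes, which summed to 5518 CPM (counts scaled to the library size by the TMM method) against 28730 to 38810 CPM in cTEC 2 to 4 and 7550 and 3376 CPM in the mTECs. Mitochondrial genes took 1.08 to 1.869% of the counts in cTECs and 3.335 and 3.074% in mTECs. Replicate libraries of a group differed by more than counting noise, and none of them matched another within it.

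Of 27179 genes in the count tables, 17792 reached 1 CPM in at least 2 of the 6 libraries and were tested with the quasi-likelihood test of edgeR. Calls were made where the Benjamini-Hochberg adjusted p was under 0.05, which took in 4779 genes (26.9%). In mTECs 2282 of these were higher (12.8%) and 2497 lower (14%). Without overlap, both mTEC libraries lay above all 4 cTEC libraries for 5306 genes (29.8%) and below them for 4451 (25%), which is 54.8% of the tested genes. Both conditions held for 4770 genes (26.8%), 4987 genes lay apart without being called (28%), and 9 called genes overlapped (0.0506%). With 2 libraries against 4, a gene without any difference can also lie apart through the order of its libraries alone. The share without overlap is thus no count of genes that differ.

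The increases were larger and sat in scarcer transcripts than the decreases. The median log2 fold change was 1.92 among the genes called higher and -1.11 among those called lower. Changes of at least 4-fold were called upward in 1091 genes (6.13%) and downward in 326 (1.83%). The genes at least 4-fold higher had a median of 7.76 CPM in mTECs and 0.749 CPM in cTECs, while those at least 4-fold lower had 39.4 CPM in cTECs and 6.63 CPM in mTECs. Below an average log2 CPM of 0, 168 of 590 genes were called higher and 1 lower. Between 6 and 8 the balance was the other way, with 415 of 3373 higher and 877 lower. In the scarcest class the filter can admit genes through their 2 mTEC libraries alone, and the median log2 fold change of all 590 was 2.18. With a filter of at least 5 CPM in at least 2 libraries, 664 genes were called at least 4-fold higher and 261 lower. Without applying the test, mTEC 1 alone was at least 4-fold above all cTEC libraries for 652 genes and at least 4-fold below them for 129, and mTEC 2 alone for 879 and 179 genes.

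**Figure D1:**
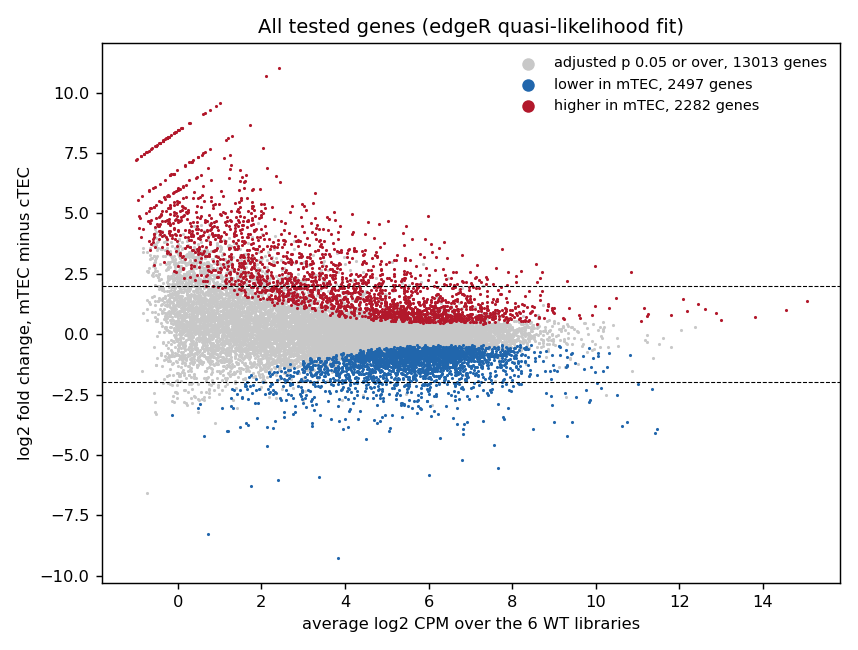
Each point is 1 of the 17792 tested genes, with its average log2 CPM over the 6 wild-type libraries on the x axis and its log2 fold change, mTEC minus cTEC, on the y axis. Red points were called higher in mTECs (2282), blue points lower (2497), and dashed lines mark 4-fold changes. The largest increases lie among scarce genes on the left, which the filter can admit through the mTEC libraries alone.

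The number of calls depended on single libraries. It was 1135 without mTEC 1 and 646 without mTEC 2, fits in which the remaining mTEC library was assumed to vary like the cTECs. It was 3053 without cTEC 3, and 6669 without cTEC 1, the library nearest to the mTECs. Upward calls of at least 4-fold numbered 323 without mTEC 1 and 156 without mTEC 2, and downward calls 246 and 138. Below, a call said to hold throughout was made in all 6 fits that each left out 1 library. Every count of list members stands against 12.8% of all tested genes called higher and 14% called lower.

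Cortical identity genes were lower in mTECs. Psmb11 (Entrez 73902, chromosome 14, 54625310 to 54629556, mm10) encodes the catalytic subunit of the thymoproteasome, a proteasome found in cTECs. Its level was 400.4, 283, 284 and 147 CPM in cTEC libraries 1 to 4 and 12.9 and 10.2 CPM in mTEC libraries 1 and 2. The groups did not overlap, and the log2 fold change was -4.59 ± 0.44 (SE, adjusted p = 0.00106). Prss16, the thymus-specific serine protease, was at 1223, 1046, 879 and 573 CPM in cTECs and 56.7 and 44.2 CPM in mTECs (-4.21 ± 0.36, adjusted p = 0.000798). Ackr4, a scavenging receptor for chemokines, was at 147, 154, 189.8 and 168 CPM in cTECs and 10.7 and 10.9 CPM in mTECs and was nearly alike within each group (-3.93 ± 0.20, adjusted p = 0.000227). Enpep, a cell-surface aminopeptidase, was at 85.4, 112, 120.4 and 79.8 CPM in cTECs and 10.8 and 11.3 CPM in mTECs (-3.17 ± 0.24, adjusted p = 0.000664). These calls held throughout. Of 8 genes listed for cortical antigen processing, 7 were lower and all 8 lay without overlap below the cTECs, with a median log2 fold change of -2.73 against 0.05 over all tested genes. Ly75, an endocytic receptor, and Cd83 were among them at -2.29 and -2.23. The count of lower members was 6 without mTEC 1 and 4 without mTEC 2. Tbata did not pass (-0.74, adjusted p = 0.0506).

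Medullary regulators were higher in mTECs, yet were not absent from the cTEC libraries. Aire (Entrez 11634, chromosome 10, 78030022 to 78043610, mm10), the autoimmune regulator, was at 117, 46.2, 29.03 and 78.3 CPM in cTEC libraries 1 to 4 and 340 and 557 CPM in mTEC libraries 1 and 2. The mTECs lay above all cTECs, and cTEC 1 held the highest cTEC level (2.73 ± 0.48, adjusted p = 0.00672). Its call was lost without mTEC 2. Fezf2, a zinc-finger regulator of tissue antigens, was at 119.7, 121, 86.3 and 105 CPM in cTECs and 353 and 424 CPM in mTECs, again without overlap (1.85 ± 0.18, adjusted p = 0.00106), and its call held throughout. In these bulk libraries, fewer cells of a type and less RNA per cell cannot be told apart.

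**Figure D2:**
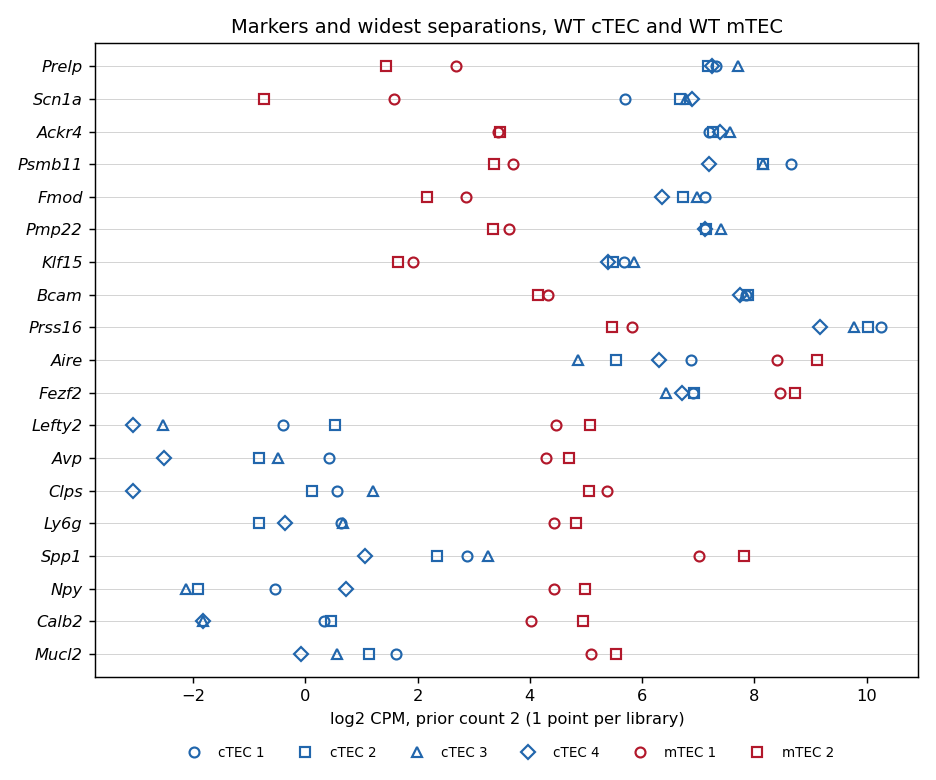
Log2 CPM (x axis, prior count 2) of 19 genes in each library, with cTECs in blue and mTECs in red and 1 symbol per library. The cortical genes at the top lie to the right in all 4 cTEC libraries, Aire and Fezf2 lie higher in both mTEC libraries, and the genes at the bottom are near 0 or below in most cTEC libraries.

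Beyond these markers, 6 genes had the widest gaps downward among called genes with an average log2 CPM of at least 3. Prelp, a small leucine-rich proteoglycan that anchors basement membranes to connective tissue, was at 159, 144, 209 and 152 CPM in cTEC libraries 1 to 4 and 6.30 and 2.60 CPM in mTEC libraries 1 and 2. The lowest cTEC library was 4.49 log2 units above the highest mTEC library (-5.22 ± 0.40, adjusted p = 0.000664). Fmod, a proteoglycan that binds collagen fibrils, was at 139, 106, 127 and 81.7 CPM in cTECs and 7.18 and 4.36 CPM in mTECs (-4.30 ± 0.33). Scn1a, a voltage-gated sodium channel of neurons, was at 51.6, 102, 110.4 and 118 CPM in cTECs and 2.87 and 0.478 CPM in mTECs and so nearly absent from mTEC 2. Pmp22, a membrane protein best known from myelin, was at 139.8, 141, 170.4 and 139 CPM in cTECs and 12.3 and 10.05 CPM in mTECs. Klf15, a zinc-finger transcription factor of metabolic tissues, was at 50.9, 44.4, 58.01 and 41.8 CPM in cTECs and 3.65 and 3.03 CPM in mTECs. Bcam, a receptor for laminin, was at 230.2, 236, 227 and 216 CPM in cTECs and 19.8 and 17.5 CPM in mTECs and differed little among the cTECs. All 6 calls held throughout.

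At the same minimum level, 8 genes had the widest gaps upward, and scarcer genes with wider gaps are described with the genes at 0 counts. Lefty2 (Entrez 320202, chromosome 1, 180893108 to 180899107, mm10), a Nodal antagonist of the early embryo, was at 0.644, 1.33, 0.0545 and 0 CPM in cTEC libraries 1 to 4 and 22.00 and 33.5 CPM in mTEC libraries 1 and 2. The gap between the groups was 3.93 log2 units (5.84 ± 1.01, adjusted p = 0.00638). Avp, the antidiuretic hormone vasopressin, was at 1.22, 0.444, 0.599 and 0.0550 CPM in cTECs and 19.4 and 25.8 CPM in mTECs. Npy, the feeding-related neuropeptide Y, was at 0.573, 0.148, 0.109 and 1.54 CPM in cTECs and 21.4 and 31.6 CPM in mTECs. Clps, the pancreatic colipase that lipase needs for fat digestion, was at 1.36, 0.962, 2.18 and 0 CPM in cTECs and 41.5 and 33.1 CPM in mTECs. Spp1, the bone and kidney protein osteopontin, was at 7.23, 4.96, 9.42 and 1.98 CPM in cTECs and 129 and 226 CPM in mTECs and rose 30.1-fold. Calb2, the neuronal calcium-binding protein calretinin, was at 1.15, 1.26, 0.163 and 0.165 CPM in cTECs and 16.1 and 30.6 CPM in mTECs. Mucl2, a mucin-like secreted protein, was at 2.93, 2.07, 1.36 and 0.826 CPM in cTECs and 33.99 and 46.2 CPM in mTECs, and Ly6g, a surface antigen of granulocytes, was at 1.43, 0.444, 1.47 and 0.660 CPM in cTECs and 21.5 and 28.1 CPM in mTECs. No cTEC library reached 10 CPM for any of these 8 genes, and no mTEC library was under it. The calls of Avp, Npy, Spp1, Mucl2 and Ly6g held throughout, and those of Lefty2 and Calb2 were lost without mTEC 2 and that of Clps without either mTEC library.

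In CPM, not divided by gene length, the largest shifts were in abundant transcripts. Malat1, a nuclear long non-coding RNA, was at 16825, 14921, 18642 and 38637 CPM in cTECs and 69832 and 45042 CPM in mTECs, so that cTEC 4 came close to mTEC 2 (1.37 ± 0.39, adjusted p = 0.0349). Lars2 was at 20363, 13069, 17757 and 21035 CPM in cTECs and 40087 and 31350 CPM in mTECs (0.98 ± 0.24). The 2 tested ribosomal RNA genes were also called higher, and the part of ribosomal RNA reads in the value of Lars2 was not tested. Ubd, a ubiquitin-like protein induced by inflammatory cytokines, was at 1038, 578, 491 and 669.9 CPM in cTECs and 4253 and 4056 CPM in mTECs and rose 5.99-fold, a call that held throughout. In the other direction, Apoe, the lipid carrier apolipoprotein E, was at 2462, 2851, 3179.7 and 2586 CPM in cTECs and 786 and 529 CPM in mTECs, and Gsn, the actin-severing protein gelsolin, was at 978, 1939, 1986 and 1193 CPM in cTECs and 319 and 327 CPM in mTECs. The calls of Malat1 and Lars2 were lost without either mTEC library or without cTEC 3, and that of Malat1 also without cTEC 2.

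The medulla-low genes included most of the basement membrane. Of 20 tested laminins and basement membrane genes, 13 were lower and none higher, with a median log2 fold change of -1.26. Lamb1, a laminin beta chain, was at 239, 245, 225 and 239.7 CPM in cTEC libraries 1 to 4 and 70.5 and 57.03 CPM in mTEC libraries 1 and 2. The cTECs were tightly grouped and the mTECs lay far below them (-1.89 ± 0.16, adjusted p = 0.000798). Lamb3 of the epidermal laminin-332 was at 208, 317, 219.7 and 247 CPM in cTECs and 56.5 and 45.9 CPM in mTECs (-2.27 ± 0.23), Lamc1 was at 61.3, 70.9, 74.5 and 41.4 CPM in cTECs and 15.97 and 13.5 CPM in mTECs, and the matrix glycoprotein fibronectin, Fn1, was at 146, 171, 169 and 142 CPM in cTECs and 45.4 and 41.6 CPM in mTECs (-1.85 ± 0.17). Each of these 4 calls held throughout. Of 31 collagens, 11 were lower and 1 higher. Col18a1, the basement membrane collagen that yields endostatin, changed by -2.53 ± 0.21 and Col6a1, a microfibril collagen, by -2.05 ± 0.23, both throughout. Col3a1 of fibrillar collagen fell by 3.46, with cTEC 2 the highest at 67.8, 275, 94.1 and 109.96 CPM in cTECs against 15.8 and 9.04 CPM. The higher one was the cartilage collagen Col9a3 (1.84).

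Proteoglycans and integrins were lower more often than higher, and cadherins went both ways. Of 15 small leucine-rich proteoglycans, 5 were lower and 1 higher. Dcn, decorin, a regulator of collagen fibrils that also binds TGF-beta, was at 816, 559, 741 and 581 CPM in cTECs and 129 and 99.7 CPM in mTECs (-2.56 ± 0.24, adjusted p = 0.00101). Ogn, osteoglycin, changed by -2.33, and Optc, opticin of the eye, was the higher member (2.57). Among 17 integrins, 6 were lower and none higher, among them Itga8, which pairs to bind fibronectin-type matrix (-1.80 ± 0.24), and Itgb4, the hemidesmosome integrin that binds laminin-332 (-1.47 ± 0.20). Of 15 cadherins, 5 were lower and 3 higher (14% and 12.8% of all tested genes), with a median log2 fold change of 0.81, 7 above all cTECs and 6 below. Cdh3, the P-cadherin of basal epithelia, was at 117, 158, 178 and 154 CPM in cTECs and 33.9 and 32.1 CPM in mTECs (-2.20 ± 0.21), and Cdh1, E-cadherin, was at 305, 473, 364 and 292 CPM in cTECs and 153 and 111 CPM in mTECs (-1.44 ± 0.25). The lower counts for laminins, collagens, proteoglycans, integrins and cadherins were 7, 4, 3, 2 and 3 without mTEC 1 and 6, 3, 3, 2 and 2 without mTEC 2. Integrins numbered 3 without cTEC 2 and 3 without cTEC 3. The higher cadherins numbered 7 without cTEC 1, 1 without cTEC 2, 1 without cTEC 3 and 0 without either mTEC library.

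Among transcription factors of thymic epithelial development, 10 of 15 were lower in mTECs and none higher, with a median log2 fold change of -0.99. Pax1, a paired-box factor of the pharyngeal pouch, was at 385, 328, 308 and 330.2 CPM in cTEC libraries 1 to 4 and 36.4 and 44.4 CPM in mTEC libraries 1 and 2. The groups were far apart (-3.06 ± 0.19, adjusted p = 0.000536). Foxn1, on which thymic epithelium depends, was at 148, 132, 134 and 104 CPM in cTECs and 64.4 and 67.2 CPM in mTECs (-0.98 ± 0.18, adjusted p = 0.00766). Trp63, the p53 relative that maintains stratified epithelia, was at 508, 530.5, 716 and 502 CPM in cTECs and 210.1 and 181 CPM in mTECs (-1.53 ± 0.21), and Meis1, a homeobox cofactor, was at 155, 173, 218 and 175 CPM in cTECs and 50.7 and 59.8 CPM in mTECs. Isl1, Pax9 and Hoxa3 changed by -1.41, -0.99 and -1.52. Pax1, Trp63 and Meis1 held throughout. The list counted 4 lower members without mTEC 1 and 3 without mTEC 2.

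Of 20 lineage factors of other tissues, which medullary mimetic cells use, 5 were higher and 1 lower, against 12.8% and 14% of all tested genes. Insm1 of neuroendocrine cells was at 39.4, 11.7, 10.02 and 17.7 CPM in cTECs and 93.7 and 115 CPM in mTECs (2.40). Cdx1 of the intestine was at 101, 57.5, 37.6 and 65.3 CPM in cTECs and 248 and 369.7 CPM in mTECs (2.24 ± 0.34, throughout). Ptf1a of the exocrine pancreas was at 0.501, 0.370, 0.381 and 0.660 CPM in cTECs and 4.81 and 4.09 CPM in mTECs, at a low level in both groups. Trp73, needed for multiciliated cells, was the lower one, at 17.96, 15.3, 13.8 and 11.9 CPM in cTECs and 2.76 and 6.01 CPM in mTECs. The higher count was 3 without cTEC 3 and 1 without either mTEC library. Among 15 Hox genes, 3 were lower and 1 higher, the latter being Hoxb13 of the hindgut and prostate (at 0.286, 0.222, 0.327 and 0 CPM in cTECs and 3.54 and 5.16 CPM in mTECs). The lower Hox count was 1 without cTEC 3 and 0 without either mTEC library.

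Of 13 ligands through which the epithelium supports thymocytes, 2 were lower and 4 higher, against 14% and 12.8% of all tested genes, and 1 was lower and 2 higher without either mTEC library. Cxcl12, the chemokine that holds early thymocytes in the cortex, was at 882, 673, 799 and 579 CPM in cTEC libraries 1 to 4 and 82.4 and 35.8 CPM in mTEC libraries 1 and 2. Both mTECs lay far below the lowest cTEC library (-3.63 ± 0.39, adjusted p = 0.00137). The next 4 ligands did not pass. Dll4, the Notch ligand that commits progenitors to the T lineage, was at 34.6, 28.3, 16.99 and 17.01 CPM in cTECs and 15.03 and 16.8 CPM in mTECs and did not pass (-0.60 ± 0.34, adjusted p = 0.216). Il7, the survival cytokine of thymocytes, was at 390.4, 309, 424 and 319.9 CPM in cTECs and 292 and 209 CPM in mTECs (-0.53 ± 0.21, adjusted p = 0.0932). Ccl25, a chemoattractant of progenitors, and Kitl, stem cell factor, overlapped between the groups, with log2 fold changes of -0.41 and -0.84. Tslp, an epithelial cytokine, was higher in mTECs, at 2.65, 2.30, 2.34 and 1.49 CPM in cTECs and 7.68 and 11.8 CPM in mTECs.

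In the Notch pathway 5 of 20 genes were lower and 1 higher, against 14% and 12.8% of all tested genes. Jag2, a Notch ligand, was at 78.1, 181, 118 and 174 CPM in cTECs and 21.1 and 21.05 CPM in mTECs (-2.71 ± 0.36, throughout), Dll1 was at 43.7, 108, 79.5 and 77.5 CPM in cTECs and 19.7 and 15.7 CPM in mTECs (-2.12), and Dll3, a ligand that dampens Notch, was the higher one (1.34). Hedgehog genes were lower in 5 of 11 cases. The co-receptors Gas1 and Boc were at 533, 958, 979 and 918 CPM in cTECs and 189.7 and 127 CPM in mTECs for Gas1 (-2.42 ± 0.32) and at 160.2, 225, 226 and 213 CPM in cTECs and 65.5 and 55.2 CPM in mTECs for Boc (-1.77 ± 0.20), both throughout. The ligand Dhh went up, at 8.73, 3.04, 3.32 and 2.31 CPM in cTECs and 22.8 and 34.02 CPM in mTECs (2.71). Among FGF ligands, receptors and targets, 7 of 16 were lower, including the receptor Fgfr2 (at 238, 308, 342 and 281 CPM in cTECs and 88.6 and 69.4 CPM in mTECs, -1.89 ± 0.21, throughout) and the feedback inhibitor Spry1 (-2.86). The hormone Fgf21 was the only member called higher, at 40.2, 71.7, 86.9 and 118 CPM in cTECs and 272 and 406 CPM in mTECs (2.09). Lower counts for Notch, Hedgehog and FGF were 3, 3 and 4 without mTEC 1 and 1, 3 and 2 without mTEC 2. Notch counted 8 without cTEC 1, and Hedgehog 3 without cTEC 3.

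Of 35 BMP and TGF-beta genes, 14 fell and 3 rose. The receptors led: Tgfbr2, the ligand-binding TGF-beta receptor, was at 83.7, 83.1, 65.2 and 80.7 CPM in cTECs and 11.1 and 7.92 CPM in mTECs (-3.04 ± 0.23), and the co-receptor Tgfbr3 was at 102, 157, 152 and 139.8 CPM in cTECs and 25.5 and 20.8 CPM in mTECs (-2.57 ± 0.24), both throughout. Among ligands and antagonists, Bmp4, which supports thymic regeneration, changed by -2.47 and the activin antagonist Fst by -2.33, while Bmp3 and the BMP antagonist Grem1 rose by 2.46 and 2.23. Of 40 Wnt ligands, receptors and antagonists, 11 were lower and 6 higher, the latter near the 12.8% of all tested genes. The lower ones included Wnt4 (-0.70), Wnt7b (-1.94) and the receptor Fzd3 (-1.83, throughout). The higher ones included the secreted antagonists Dkk1 (at 1.57, 1.92, 1.69 and 1.43 CPM in cTECs and 13.5 and 13.1 CPM in mTECs, throughout) and Dkk2 (3.81), the agonist Rspo3 (4.26) and the ligand Wnt10b (3.09). Dkk3 of the same family was lower (-2.01). BMP and TGF-beta counted 7 lower members without mTEC 1, 3 without mTEC 2 and 9 without cTEC 3. Wnt counted 3 lower and 2 higher without mTEC 1, and 3 lower and 1 higher without mTEC 2.

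Both insulin-like growth factors were higher in mTECs, and their binding proteins went both ways. Igf1 was at 97.8, 32.8, 43.5 and 47.99 CPM in cTECs and 262 and 235 CPM in mTECs (2.16 ± 0.37) and Igf2 was at 2.08, 1.85, 2.56 and 1.54 CPM in cTECs and 14.1 and 16.4 CPM in mTECs (2.92 ± 0.35). Of the binding proteins that modulate them, Igfbp5 was at 914, 1534, 1696 and 1481 CPM in cTECs and 391 and 303 CPM in mTECs and Igfbp4 was at 216, 363, 405 and 349 CPM in cTECs and 66.2 and 69.05 CPM in mTECs, both lower, and Igfbp6 was at 7.87, 2.74, 3.16 and 2.37 CPM in cTECs and 31.7 and 49.9 CPM in mTECs, higher. These 5 calls held throughout. In all, 4 of 15 members were higher and 3 lower, and without cTEC 1 and without cTEC 4 there were 5 higher and 5 lower. Of 20 retinoid genes, 7 were lower and 5 higher. Aldh1a1, which makes retinoic acid, was at 37.9, 29.6, 39.8 and 50.4 CPM in cTECs and 3.32 and 2.82 CPM in mTECs (-3.68 ± 0.30, throughout), while Cyp26a1, which degrades it, was at 6.15, 4.22, 5.94 and 12.5 CPM in cTECs and 54.2 and 78.1 CPM in mTECs (3.19 ± 0.39, throughout). Crabp1, a retinoic acid carrier, and Lrat, which stores retinol, rose by 2.99 and 3.23. The retinoid counts were 4 lower and 3 higher without mTEC 1, and 2 lower and 1 higher without mTEC 2. Of 49 axon guidance genes, 12 were lower and 5 higher (14% and 12.8% of all tested genes), with Epha1, an ephrin receptor, at -2.83 (throughout), Sema4c at -2.06, and the neuronal guidance ligand Slit1 at 3.67. That lower count was 5 without mTEC 1 and 3 without mTEC 2, and the higher count was 2 without cTEC 2, 2 without cTEC 3 and 0 without either mTEC library.

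Genes of mature mTECs were higher. Of 18 listed genes 9 were higher and 1 lower, with a median log2 fold change of 1.88, and 15 lay without overlap above the cTECs (29.8% of all tested genes did). Tnfrsf9, a costimulatory receptor, was at 16.2, 10.7, 8.33 and 11.4 CPM in cTEC libraries 1 to 4 and 68.3 and 61.2 CPM in mTEC libraries 1 and 2. The groups did not overlap (2.47 ± 0.25, adjusted p = 0.00122). Cd80, a costimulatory ligand for T cells, was at 11.4, 5.77, 4.25 and 5.83 CPM in cTECs and 32.6 and 36.4 CPM in mTECs (2.34 ± 0.37), and Cd40, which receives help from T cells, was at 87.9, 38.9, 51.7 and 48.5 CPM in cTECs and 184 and 236 CPM in mTECs (1.89 ± 0.29). Cldn13, a claudin, was at 10.4, 20.2, 6.48 and 5.89 CPM in cTECs and 78.8 and 99.7 CPM in mTECs (3.06 ± 0.44), and Ccl17, a chemokine for regulatory T cells, was at 1.65, 0.814, 0.708 and 1.87 CPM in cTECs and 11.7 and 21.7 CPM in mTECs (3.72 ± 0.50). Tnfrsf11a, the receptor RANK that drives mTEC maturation, differed less, at 149, 140.2, 135 and 157 CPM in cTECs and 231 and 242 CPM in mTECs (0.70 ± 0.14, adjusted p = 0.0093). Cd274, the inhibitory ligand PD-L1, was the lower gene, at 234, 209.96, 221 and 179 CPM in cTECs and 152 and 138 CPM in mTECs (-0.54).

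For some mature genes the outcome turned on cTEC 1. Ccl22 was at 65.7, 3.85, 2.61 and 2.59 CPM in cTECs and 168 and 109.5 CPM in mTECs and Cd86 was at 20.9, 1.55, 1.85 and 0.881 CPM in cTECs and 38.8 and 39.3 CPM in mTECs. Both mTEC libraries lay above all cTECs, but cTEC 1 was far above cTEC 2 to 4, and neither gene passed (adjusted p = 0.11 and 0.103), although both were called without cTEC 1. Cd70 showed the same order at 18.5, 2.07, 3.38 and 2.97 CPM in cTECs and 47.6 and 51.9 CPM in mTECs and did pass (2.90, adjusted p = 0.0282), a call lost when any 1 library other than cTEC 1 was left out. The mature list counted 7 higher members without mTEC 1, 3 without mTEC 2 and 11 without cTEC 1. Tnfrsf9 and Cldn13 held throughout, and the calls of Cd80, Cd40 and Ccl17 were lost without mTEC 2.

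Of 35 TNF ligands and receptors, 11 rose and 7 fell, against 12.8% and 14% of all tested genes. The ligand Tnfsf9, which binds Tnfrsf9, was at 30.3, 10.7, 7.24 and 9.03 CPM in cTECs and 97.7 and 61.9 CPM in mTECs (2.48), and Tnf itself was at 15.5, 3.33, 2.78 and 1.60 CPM in cTECs and 41.6 and 25.7 CPM in mTECs (2.54), cTEC 1 again the highest cTEC library. Higher members numbered 7 without cTEC 2, 6 without cTEC 3, 7 without cTEC 4, 2 without mTEC 1 and 1 without mTEC 2. Lower ones numbered 2 and 0 without mTEC 1 and mTEC 2. Of 34 chemokine ligands, 15 rose and 3 fell. Xcl1, which attracts dendritic cells and is an Aire-linked product of mTECs, was at 0.0716, 0, 0.0545 and 0 CPM in cTECs and 4.14 and 8.98 CPM in mTECs (7.41 ± 0.93, adjusted p = 0.00212). Ccl1 was at 1.15, 0.370, 0.654 and 0 CPM in cTECs and 15.1 and 20.5 CPM in mTECs (5.04), Cxcl9 of the interferon-gamma response was at 18.7, 16.9, 17.5 and 18.9 CPM in cTECs and 85.5 and 125 CPM in mTECs (2.55), and Cxcl10 was at 218, 371, 401 and 312 CPM in cTECs and 831 and 631 CPM in mTECs. Lower members were Cxcl12, Cx3cl1 (at 152, 249.8, 216 and 241 CPM in cTECs and 48.3 and 37.05 CPM in mTECs, -2.33 ± 0.25) and Ccl21a, a medullary attractant of thymocytes, at 743, 673, 967 and 659 CPM in cTECs and 509 and 283 CPM in mTECs (-0.94, adjusted p = 0.0369). Ccl21a has near-identical copies, so its value is uncertain. Higher chemokines numbered 7 without mTEC 1 and 6 without mTEC 2, and Xcl1, Cxcl9, Cxcl12 and Cx3cl1 held throughout.

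Cathepsins, the lysosomal proteases of antigen processing, moved in both directions. Ctsl, the cathepsin that cuts the invariant chain in the cortex, was at 5066, 3098, 3839 and 2144 CPM in cTEC libraries 1 to 4 and 924 and 558 CPM in mTEC libraries 1 and 2, without overlap (-2.26 ± 0.39, adjusted p = 0.0059). Ctss, the cathepsin of professional antigen-presenting cells, was at 101, 48.3, 40.6 and 49.3 CPM in cTECs and 276 and 316 CPM in mTECs (2.31 ± 0.33, adjusted p = 0.00326). Ctsz rose from 186 ± 28.6 to 642 ± 23.7 CPM (SD, n = 4 and n = 2), Ctsh rose by 1.03, and Ctsd fell by 1.11 on the log2 scale. Of 14 cathepsins 5 were higher and 3 lower (12.8% and 14% of all tested genes), 3 and 1 without mTEC 1, and 2 and 0 without mTEC 2. Ctss and Ctsz held throughout, and Ctsl was lost without mTEC 2.

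Of 11 genes of MHC class II presentation, 7 rose in mTECs and none fell. H2-Aa, a chain of the class II molecule, was at 3479, 2551, 2869.6 and 2547 CPM in cTECs and 4635 and 5368 CPM in mTECs (0.81 ± 0.19, adjusted p = 0.0183). H2-Ab1 and the invariant chain gene Cd74 rose by 0.59 and 0.73. H2-Oa, which restrains peptide loading, was at 187, 56.6, 57.6 and 55.04 CPM in cTECs and 349 and 411 CPM in mTECs, with cTEC 1 apart from the other cTECs (2.09 ± 0.49). The calls of Cd74 and H2-Ab1 were lost with library totals in place of TMM scaling, and when any 1 library other than cTEC 1 was left out. Class II counts were 4 without cTEC 2, 3 without cTEC 3, and 2 without either mTEC library. In the class I pathway 7 of 16 genes were higher and 2 lower, against 12.8% and 14% of all tested genes. B2m, the light chain of class I, was at 7004, 4416, 6116 and 5869 CPM in cTECs and 11643 and 9950.2 CPM in mTECs (0.88), Psme2 of the proteasome activator was at 81.1, 57.01, 69.8 and 78.1 CPM in cTECs and 151 and 171 CPM in mTECs (1.17), while Tap2, a subunit of the peptide transporter, was lower, at 133, 287, 205 and 215 CPM in cTECs and 124 and 102 CPM in mTECs (-0.90). Higher class I genes numbered 4 without cTEC 2, 2 without cTEC 3, 4 without cTEC 4, 2 without mTEC 1 and 0 without mTEC 2.

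Of 30 interferon response genes, 14 fell and 4 rose (14% and 12.8% of all tested genes), with a median log2 fold change of -0.56. Irf7, the amplifier of type I interferon, was at 303, 446, 299 and 325 CPM in cTECs and 169 and 154 CPM in mTECs (-1.09 ± 0.21, adjusted p = 0.00839). Oasl1, which restrains Irf7, was among the higher ones, at 60.9, 54.8, 39.00 and 45.6 CPM in cTECs and 113 and 88.6 CPM in mTECs (1.01). The lower count was 7 without cTEC 2, 7 without cTEC 3, 4 without mTEC 1 and 0 without mTEC 2, and the higher count was 0 without either mTEC library.

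Hormones and neuropeptides of other organs were higher in mTECs. Of 27 tested genes 19 were called higher, none lower, and all 27 lay above every cTEC library (29.8% of all tested genes did), with a median log2 fold change of 4.24. The filter admits a gene under 1 CPM in every cTEC library only through both mTEC libraries. Such members could not overlap, so the 27 are no measure of separation. Without a filter on low counts, 18 of 30 members were higher and none lower, with a median of 4.28. Pyy, a gut hormone of satiety, was at 6.80, 5.70, 0.218 and 1.76 CPM in cTEC libraries 1 to 4 and 72.6 and 109 CPM in mTEC libraries 1 and 2, without overlap (4.69 ± 0.82, adjusted p = 0.00674). Pomc, the precursor of corticotropin, was at 6.23, 10.5, 3.49 and 3.47 CPM in cTECs and 58.4 and 100.5 CPM in mTECs (3.76 ± 0.45, throughout). Nts, neurotensin, was at 13.02, 2.52, 0.980 and 5.61 CPM in cTECs and 113 and 129.8 CPM in mTECs and Calcb, a form of calcitonin gene-related peptide, was at 107, 60.3, 54.2 and 58.9 CPM in cTECs and 306 and 414 CPM in mTECs. Ins2, an insulin gene, was at 2.50, 0.740, 0.0545 and 0.550 CPM in cTECs and 22.9 and 30.7 CPM in mTECs (4.83 ± 0.86), and its antagonist glucagon, Gcg, was at 2.93, 7.996, 0.272 and 0.936 CPM in cTECs and 25.4 and 34.7 CPM in mTECs. Sst, somatostatin, was at 5.15, 0.296, 0.109 and 0.0550 CPM in cTECs and 20.1 and 35.7 CPM in mTECs, with cTEC 1 above the other cTECs (4.35 ± 1.30, adjusted p = 0.0415), a call lost when any 1 library other than cTEC 1 was left out. Tac2, the neurokinin B precursor, was at 3.94, 1.85, 0.763 and 0 CPM in cTECs and 39.2 and 60.4 CPM in mTECs. Crh, the releasing hormone of the stress axis, had 0 counts in all 4 cTEC libraries and 70 and 138 counts in the mTECs, and was at least 120-fold higher, taking 3 counts over the cTEC group as the limit. The list counted 11 higher without mTEC 1 and 7 without mTEC 2.

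Steroid enzymes, plasma proteins, milk proteins and skin proteins shared this direction. Of 12 genes of steroid hormone synthesis, 6 were higher. Cyp11a1, which starts the pathway, was at 0.573, 0.888, 0 and 0 CPM in cTECs and 9.40 and 12.2 CPM in mTECs (4.94 ± 1.18). Cyp19a1, the aromatase of ovary and placenta, and Cyp11b1, the cortisol-type enzyme of the adrenal, had 0 counts in all cTECs. The rise was at least 90.7-fold for Cyp19a1 and at least 51-fold for Cyp11b1. Among 20 plasma proteins of the liver, 12 were higher. Apoa1, the main protein of high-density lipoprotein, was at 73.9, 60.7, 41.7 and 19.98 CPM in cTECs and 202 and 182 CPM in mTECs (1.97 ± 0.41), Apoa4 was at 134, 63.7, 57.5 and 32.3 CPM in cTECs and 227 and 207 CPM in mTECs, and the fibrinogen chain Fgb was at 0, 0.518, 0 and 0 CPM in cTECs and 7.02 and 9.57 CPM in mTECs, seen in 1 cTEC library. Of 11 milk and saliva proteins, 7 were higher and 2 lower. The casein Csn2 was at 127, 117, 97.8 and 98.96 CPM in cTECs and 587 and 759.8 CPM in mTECs (2.61 ± 0.17, throughout) and its relative Csn1s2a was at 1.07, 1.63, 0.272 and 0.0550 CPM in cTECs and 14.4 and 27.96 CPM in mTECs. Within 1 family, Bpifa2 of saliva was at 0.573, 0.0740, 0 and 0 CPM in cTECs and 7.35 and 8.24 CPM in mTECs while Bpifa1 of the airway was at 1057, 1512, 1108 and 1473 CPM in cTECs and 451 and 429 CPM in mTECs, the first higher and the second lower. Of 19 genes of the cornified envelope 7 were higher, including filaggrin, Flg (at 0.787, 4.66, 3.92 and 1.21 CPM in cTECs and 13.7 and 12.4 CPM in mTECs), and the protease Klk5 (3.62). Higher counts for steroid, plasma, milk and cornified genes were 1, 1, 4 and 1 without mTEC 1 and 0, 2, 2 and 0 without mTEC 2. Without cTEC 3 they were 7 for plasma and 4 for cornified genes. The limit of the filter given for the hormones holds for scarce members of these lists too. Without a filter on low counts, 6 of 13 steroid, 12 of 23 plasma, 10 of 18 milk and 7 of 19 cornified genes were higher, and 2 milk genes were lower.

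Of 27 keratins, 7 were lower and 3 higher, the latter close to the 12.8% of all tested genes (14% were lower). Krt5 of basal cells was at 840.5, 1488, 1096 and 1325 CPM in cTECs and 444 and 478 CPM in mTECs (-1.37 ± 0.25), Krt8 of simple epithelia was at 1771, 1501, 1191 and 1429 CPM in cTECs and 779 and 939.8 CPM in mTECs (-0.78 ± 0.20), and Krt6a changed by -1.998. The higher ones included Krt76 of oral mucosa (at 2.79, 3.63, 1.91 and 4.18 CPM in cTECs and 19.2 and 23.1 CPM in mTECs, throughout) and Krt24 (5.10). Epcam, a surface protein of all thymic epithelium, was at 914, 887, 893 and 817 CPM in cTECs and 1196 and 1144 CPM in mTECs and did not pass (0.41 ± 0.14, adjusted p = 0.0651). Other epithelial lists are given by count. Of 10 general epithelial markers 5 were lower and 1 higher, of 14 genes of junctional mTECs 8 and 1, of 16 claudins 2 and 3, of 26 complement genes 6 and 4, and of 22 cholesterol synthesis genes 1 and 5. Without mTEC 2 the lower ones numbered 0 epithelial, 1 junctional and 0 in each of the other 3 lists, and no member of the 5 lists but 1 claudin was higher. Without mTEC 1 the lower ones were 1, 4, 1, 2 and 0, and again 1 claudin was higher. Without cTEC 3 the cholesterol genes that were higher numbered 1. The lower keratins numbered 4 without cTEC 2 and 0 without either mTEC library, and the higher ones 6 without cTEC 1, 8 without cTEC 2, 5 without cTEC 4 and 1 without either mTEC library.

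**Figure D3:**
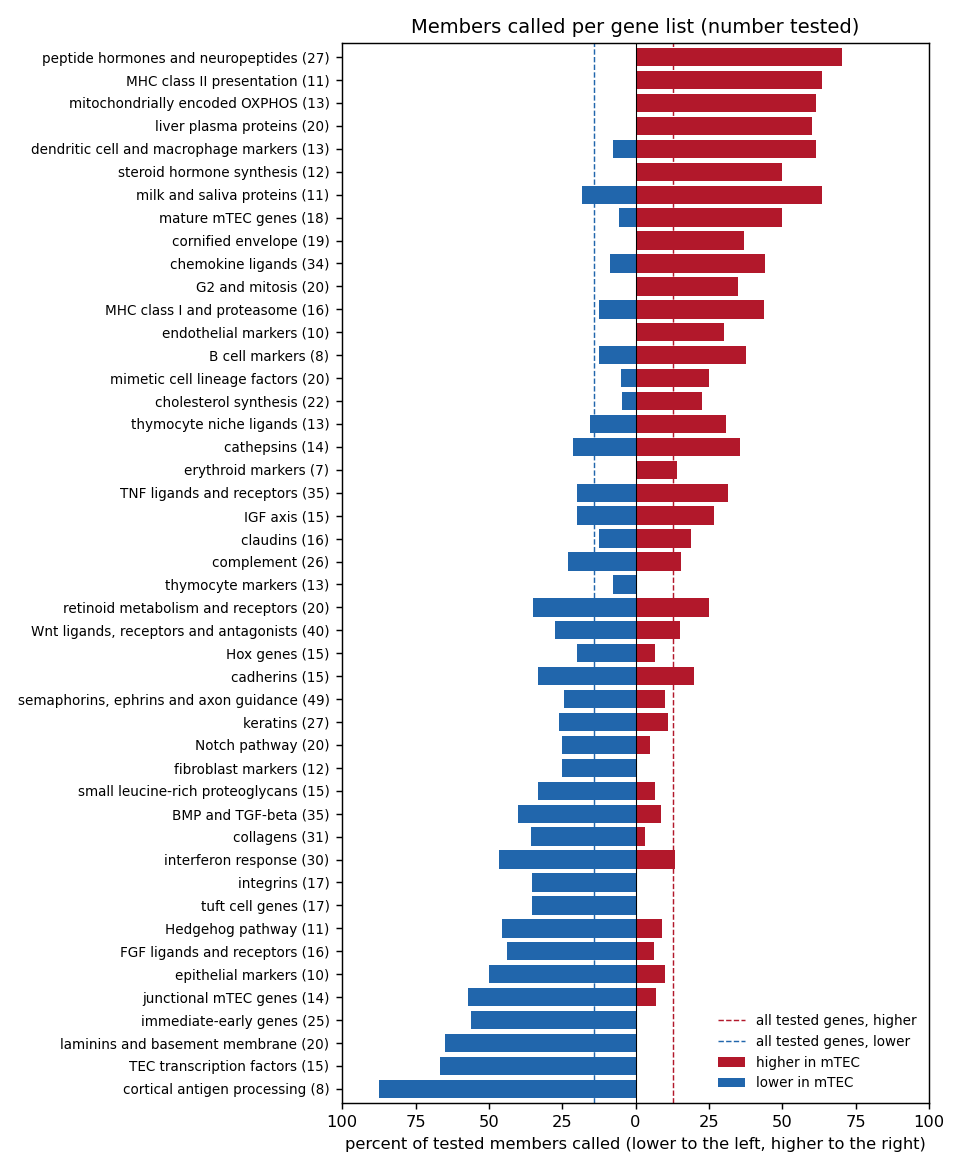
For each gene list (number tested in brackets), the percentage of tested members called lower in mTECs extends left in blue and that called higher extends right in red. Dashed lines mark the share of all tested genes, 14% lower and 12.8% higher. Hormones and neuropeptides (19 of 27), milk and saliva proteins (7 of 11) and class II (7 of 11) reach farthest right, and cortical antigen processing, thymic epithelial transcription factors and basement membrane genes farthest left.

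The count of detected genes followed the same pattern. At least 1 count was found for 18704 to 20405 genes in the cTECs and for 22367 and 22708 genes in the mTECs. With each library thinned to 13300969 counts, the numbers were 18488 to 20101 against 22039 and 22449 and the groups still did not overlap. The difference between group means was 2824.2 genes as deposited and 2665 after thinning. A gene at 0 in every cTEC library was tested only where both mTEC libraries reached 1 CPM, so its groups could not overlap. In all, 54 tested genes had 0 counts in every cTEC library, and all 54 were called higher, which the filter made likely. Another 2 tested genes had 0 counts in both mTEC libraries, and 1 of these was called. The latter was the bitter taste receptor Tas2r119, at 0.286, 2.15, 2.29 and 4.40 CPM in cTECs and 0 and 0 CPM in mTECs, at least 28.1-fold lower. Of the 54, Prl2a1 and Prl7d1, placental relatives of prolactin, were found only in mTECs, with 394 and 172 counts of Prl2a1 and 233 and 224 counts of Prl7d1. Prl2a1 was at least 330-fold higher and Prl7d1 at least 264-fold, and both calls held throughout. Lipf, the gastric lipase, had 52 and 142 counts and was at least 111-fold higher.

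Clustered families of other tissues showed this on the level of whole loci. The families were chosen after their values were seen and carry no test, and since members share sequence, the split of reads within a family is uncertain. Over all 27179 genes, at least 5 counts were found for 17260 to 18032 in a cTEC library and for 20065 and 20601 in the mTECs. These numbers and those of the families are from libraries as deposited, where both mTEC totals exceeded every cTEC total. At least 5 counts were found for 0 to 2 of 25 placental prolactins in a cTEC library and for 13 and 17 in the mTECs. Each of 13 pregnancy-specific glycoproteins, secreted by the placenta, reached 5 counts in both mTEC libraries, and 2 to 6 did in a cTEC library. Major urinary proteins, carriers of scent, numbered 0 to 2 of 22 in cTECs and 12 and 13 in mTECs. Late cornified envelope genes of the skin numbered 1 to 4 of 20 in cTECs and 18 in each mTEC library. Placental cathepsins numbered 0 of 8 in each cTEC library and 5 and 6 in mTECs. Tissue kallikreins, serine proteases of gland and skin, were detected in both groups, and 18 of 27 were called higher and none lower. Olfactory receptors were mostly not detected, with 19 to 22 of 1108 in cTECs and 69 and 103 in mTECs. Bitter taste receptors ran the other way. Of 27 tested, 8 were called lower and none higher, with 23 to 31 of 35 at 5 counts in cTECs and 26 in each mTEC library.

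**Figure D4:**
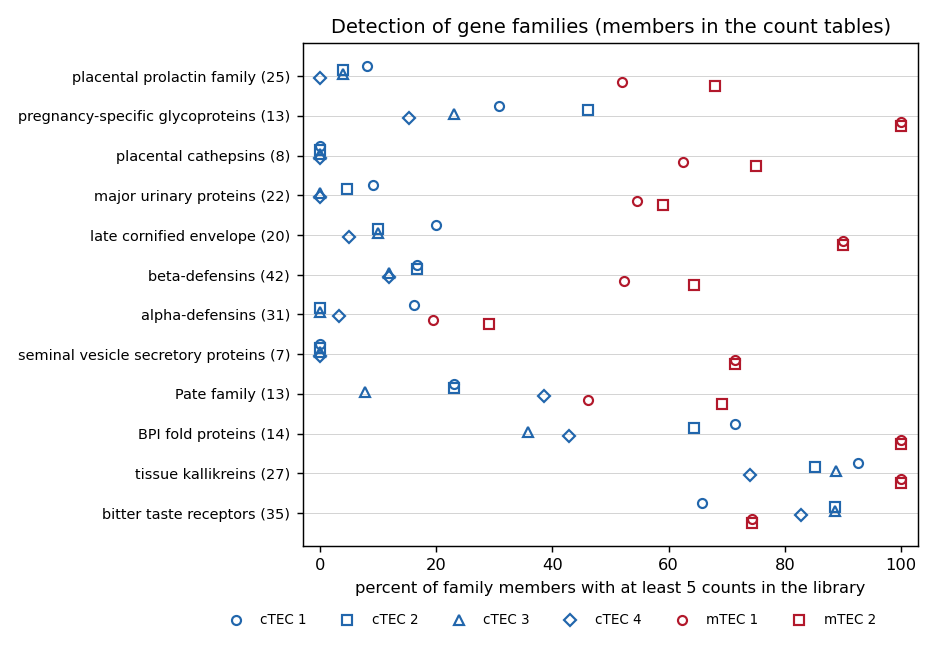
Percentage of members of each gene family with at least 5 counts (x axis) in each library, family size in brackets, cTECs in blue and mTECs in red. For 11 of the 12 families shown both mTEC points lie right of all cTEC points. The bitter taste receptors at the bottom do not.

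Some genes that rose sat beside each other. Of 1078 placed genes called at least 4-fold higher, 343 (31.8%) had a tested neighbour of the same class next to them. For genes at least 4-fold lower it was 43 of 316 (13.6%). The higher class is also larger, 6.13% of tested genes against 1.83%, so these shares do not compare the classes, and no chance value was computed. Runs of at least 4 such adjacent genes numbered 20 upward and 0 downward, with the same limit. A run on chromosome 5 (87575968 to 87979351, mm10) held Sult1e1, Csn1s1, Csn2, Csn1s2a and a further gene, and so part of the casein locus. On chromosome 3 (93017807 to 93333572) Lce1m, Crnn, Flg2, Flg and Hrnr of the epidermal differentiation complex formed a run. Kallikreins formed 3 runs on chromosome 7, and the trypsin genes Try4, Try5 and Prss1 lay in a run on chromosome 6 (41302272 to 41463786). Neighbours in a gene family share sequence, and this was not corrected for. The runs were looked for after the data were seen.

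The promoters of the genes that rose most held few CG dinucleotides. These were read from RefSeq (GRCm38.p6), from 250 bases before to 50 after the start, for the 10879 tested genes with exactly 1 promoter entry. The letters CG were counted, which are the same on both strands. Over all of these genes the median was 18 CG per promoter, and 7.99% held at most 2. The 1456 genes called higher without overlap had a median of 9 and the 1479 called lower without overlap had 22, or 12 and 22 over all genes without overlap. Genes called at least 4-fold higher had a median of 4, and 29.2% of the 722 held at most 2. The 194 genes called at least 4-fold lower had a median of 17 with 5.15% at most 2, and the 736 genes called higher by under 4-fold had a median of 18. The motif TATAAA on the gene's strand, 20 to 40 bases before the start, was found in 13% of the genes at least 4-fold higher, 3.09% of those at least 4-fold lower and 2.6% of all. On either strand and anywhere in the window it was in 24.9%, 14.4% and 9.6%. The low CG count was seen in each of 4 classes of expression level. The medians were 4, 4, 5 and 4 for genes at least 4-fold higher, from the scarcest class to the most abundant, and 7, 15, 21 and 22 for all genes. Among genes at 100 CPM or more in their higher group it was 4 for the 48 at least 4-fold higher, 20 for the 52 at least 4-fold lower and 22 for all. Promoter features were looked at with the gene classes known, and a match of letters is a description.

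Promoters of some genes with wide gaps are printed as examples, 5′ to 3′ on the gene's strand, with each CG in capitals. They were picked to show few and many CG and do not stand for all genes with wide gaps. Prl2a1 (chr13:27801405-27801704, plus strand, 1 CG), Lipf (chr19:33960998-33961297, plus strand, 0 CG) and Mucl2 (chr15:103899263-103899562, minus strand, 1 CG) rose in mTECs, and Npy (chr6:49822460-49822759, plus strand, 24 CG) is a rising gene with many CG. Klf15 (chr6:90462326-90462625, plus strand, 47 CG), Bcam (chr7:19770483-19770782, minus strand, 27 CG) and Psmb11 (chr14:54625060-54625359, plus strand, 4 CG) fell. Few CG were also found in falling genes with wide gaps that are not printed: Prelp held 7, Scn1a 5, Ackr4 10 and Fmod 3. Pmp22, with 4 promoter entries, held 3 to 30. The contrast in CG was thus not general among the falling genes with the widest gaps.
Prl2a1: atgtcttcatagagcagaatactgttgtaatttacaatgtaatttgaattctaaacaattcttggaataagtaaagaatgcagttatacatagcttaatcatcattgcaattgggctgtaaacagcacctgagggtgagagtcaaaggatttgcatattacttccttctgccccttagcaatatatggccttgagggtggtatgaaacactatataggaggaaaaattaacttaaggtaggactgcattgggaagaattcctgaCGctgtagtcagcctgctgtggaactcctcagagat
Lipf: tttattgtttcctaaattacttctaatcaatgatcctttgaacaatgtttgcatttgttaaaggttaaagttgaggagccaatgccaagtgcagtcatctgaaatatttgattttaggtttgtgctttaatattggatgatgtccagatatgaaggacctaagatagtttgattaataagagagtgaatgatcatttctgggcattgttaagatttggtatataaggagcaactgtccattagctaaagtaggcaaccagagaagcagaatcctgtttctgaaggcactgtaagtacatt
Mucl2: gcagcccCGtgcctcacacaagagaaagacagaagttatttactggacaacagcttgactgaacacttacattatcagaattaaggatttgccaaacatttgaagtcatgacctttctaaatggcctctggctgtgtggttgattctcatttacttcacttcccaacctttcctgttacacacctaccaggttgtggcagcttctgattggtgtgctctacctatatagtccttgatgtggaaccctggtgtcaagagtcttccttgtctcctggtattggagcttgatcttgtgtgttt
Npy: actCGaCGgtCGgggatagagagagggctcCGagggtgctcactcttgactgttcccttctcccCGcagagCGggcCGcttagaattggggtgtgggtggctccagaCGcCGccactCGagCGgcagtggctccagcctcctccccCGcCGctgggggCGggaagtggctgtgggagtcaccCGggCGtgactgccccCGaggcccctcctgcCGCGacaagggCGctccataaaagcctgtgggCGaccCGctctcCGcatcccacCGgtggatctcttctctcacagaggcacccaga
Klf15: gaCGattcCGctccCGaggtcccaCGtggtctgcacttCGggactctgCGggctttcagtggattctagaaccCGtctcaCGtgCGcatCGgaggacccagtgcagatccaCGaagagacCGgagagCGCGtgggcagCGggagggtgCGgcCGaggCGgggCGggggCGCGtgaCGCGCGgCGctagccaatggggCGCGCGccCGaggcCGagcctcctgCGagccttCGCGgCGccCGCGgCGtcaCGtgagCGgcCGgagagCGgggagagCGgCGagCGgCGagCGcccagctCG
Bcam: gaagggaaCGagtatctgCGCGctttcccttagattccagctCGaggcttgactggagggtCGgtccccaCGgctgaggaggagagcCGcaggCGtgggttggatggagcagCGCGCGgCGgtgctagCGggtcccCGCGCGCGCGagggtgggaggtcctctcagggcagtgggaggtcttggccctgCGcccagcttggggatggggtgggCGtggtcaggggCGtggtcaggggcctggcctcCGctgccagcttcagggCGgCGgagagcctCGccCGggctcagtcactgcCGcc
Psmb11: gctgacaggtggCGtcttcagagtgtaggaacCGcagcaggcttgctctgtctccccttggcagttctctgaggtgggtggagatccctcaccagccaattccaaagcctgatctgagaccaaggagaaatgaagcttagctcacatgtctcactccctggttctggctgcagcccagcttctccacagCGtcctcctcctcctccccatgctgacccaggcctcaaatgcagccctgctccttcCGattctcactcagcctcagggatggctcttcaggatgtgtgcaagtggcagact

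**Figure D5:**
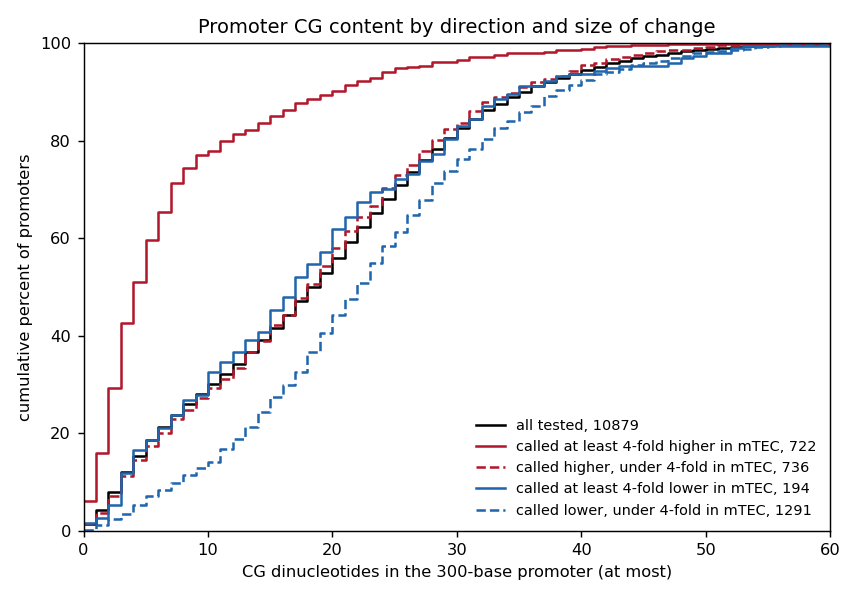
Cumulative percentage of promoters (y axis) holding at most a given number of CG dinucleotides (x axis) in the 300 bases around the start, for all tested genes in black, genes called higher in red and lower in blue, solid for changes of at least 4-fold and dashed for smaller ones. The solid red curve of 722 genes lies far to the left, while the dashed red curve and the solid blue curve run close to the black curve.

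Immediate-early genes, which stimulation or handling induces within minutes, were lower in mTECs in 14 of 25 cases, with a median log2 fold change of -2.52. Fos was at 518, 6179, 4434 and 4938 CPM in cTECs and 361 and 114 CPM in mTECs (-4.08 ± 1.02, adjusted p = 0.0225), Jun was at 487, 6588, 4114 and 5251 CPM in cTECs and 380.01 and 163 CPM in mTECs (-3.92 ± 0.99), and Nr4a1 was at 29.98, 266, 137 and 227 CPM in cTECs and 13.5 and 5.05 CPM in mTECs. The groups did not overlap for these genes, but cTEC 1 lay beside the mTECs and not beside cTEC 2 to 4. Fosb fell most, at 26.6, 421, 304 and 455 CPM in cTECs and 9.40 and 3.40 CPM in mTECs. With cTEC 1 as the only cTEC library the median log2 fold change was -0.28. That is 1 library against 2, so its spread comes from the mTECs alone and no calls are given. The count was 21 without cTEC 1, 6 without cTEC 2 and 0 without either mTEC library.

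The cTEC 1 library stood apart in cell cycle genes as well. Of 20 G2 and mitosis genes 7 were higher in mTECs, with summed levels of 437.9 CPM in cTEC 1, 122.5 to 201.2 CPM in cTEC 2 to 4, and 548.2 and 688.8 CPM in mTECs. Cdk1, the mitotic kinase, was at 26.6, 7.85, 8.82 and 12.8 CPM in cTECs and 49.2 and 70.96 CPM in mTECs (2.10 ± 0.45), Top2a was at 46.9, 13.5, 18.1 and 25.3 CPM in cTECs and 71.8 and 84.3 CPM in mTECs (1.59), and the proliferation marker Mki67 was at 47.2, 14.7, 19.3 and 23.5 CPM in cTECs and 59.3 and 72.9 CPM in mTECs (1.34). The count was 18 without cTEC 1, 4 without cTEC 2, 3 without cTEC 3, 4 without cTEC 4, 1 without mTEC 1 and 0 without mTEC 2. Of 13 mitochondrially encoded respiratory genes 8 were higher, among them COX1 of complex IV (at 2868, 3269, 4986 and 4206 CPM in cTECs and 9997 and 8017 CPM in mTECs, 1.23 ± 0.25). That count was 5 without cTEC 3 and 0 without either mTEC library. What cTEC 1 shares with the mTECs in these lists, and its part in the other results, was not tested beyond the fits without it.

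Tuft cells are chemosensory cells of the medulla, and of 17 genes that mark them 6 fell in mTECs and none rose. Trpm5, the cation channel of taste signalling, was at 200.02, 287, 154 and 274 CPM in cTEC libraries 1 to 4 and 67.9 and 80.7 CPM in mTEC libraries 1 and 2. The cTECs were higher without overlap (-1.62 ± 0.28, adjusted p = 0.0059). Avil, an actin-binding protein of tuft cells, was at 244, 448, 167 and 495 CPM in cTECs and 77.6 and 101 CPM in mTECs (-1.92 ± 0.45), Gnat3, the taste G protein, was at 214, 329, 278 and 272 CPM in cTECs and 171 and 172 CPM in mTECs (-0.67), and Rgs13 overlapped between the groups, at 264, 145, 117 and 178 CPM in cTECs and 137 and 155 CPM in mTECs. The tuft count was 10 without cTEC 1 and 0 without either mTEC library. The bitter taste receptors described above moved in the same direction. So the libraries labelled cortical held RNA of genes that mark medullary cells, namely Trpm5, Aire and Fezf2, in all 4 cases. The medullary chemokine Ccl21a and 8 of 14 genes of junctional mTECs were also lower in mTECs. Of these 14 genes 1 was higher, and their median log2 fold change was -0.79. A lower level in the libraries labelled medullary thus does not make a gene cortical, and the cell make-up of the libraries was not tested.

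Markers of blood and stromal cells were looked at in the same way. Among markers of macrophages and dendritic cells, 8 of 13 tested rose and 1 fell, and summed levels were 264 to 336.9 CPM in cTECs and 877.4 and 1156 CPM in mTECs. Most of the sum in every library but cTEC 2 was Lyz2, lysozyme (at 224, 121, 140.03 and 207 CPM in cTECs and 744 and 1001 CPM in mTECs, 2.33 ± 0.26), and C1qb, a complement chain of macrophages, was at 1.50, 1.33, 0.763 and 0 CPM in cTECs and 7.24 and 11.96 CPM in mTECs. The pan-leukocyte gene Ptprc was at 19.9, 10.5, 11.4 and 7.26 CPM in cTECs and 8.46 and 12.5 CPM in mTECs and overlapped. No marker of the 13 was at 0 in an mTEC library, and C1qb, Flt3 and Xcr1 were at 0 in cTEC 4. The higher count was 5 without cTEC 3, 3 without mTEC 1 and 1 without mTEC 2. B cell markers summed to 49.53 to 85.02 CPM in cTECs and 142.8 and 164.4 CPM in mTECs, with 3 of 8 higher and 1 lower. Ms4a1 was at 0 in cTEC 4, and without either mTEC library 0 were higher and 0 lower. Thymocyte markers summed to 82.23 to 177.5 CPM and 80.08 and 89.3 CPM, with 0 of 13 higher and 1 lower, or 5 lower without cTEC 4. Endothelial markers summed to 53.44 to 67.37 CPM in cTECs and 154.3 and 82.49 CPM in mTECs. Of 10, 3 were higher (12.8% of all tested genes were), 1 without cTEC 2, 1 without cTEC 3 and 0 without either mTEC library, and the median log2 fold change went from 1.63 to -0.17 without mTEC 1. Erythroid markers summed to 22.11 to 118.2 CPM and 98.04 and 46.72 CPM, 1 of 7 higher and 0 without cTEC 3 or either mTEC library. Fibroblast markers were lower in 3 of 12 cases (14% of all tested genes were), in 2 without mTEC 1, cTEC 2 or cTEC 3 and in 1 without mTEC 2. They summed to 776.9 to 1024 CPM in cTECs and 245.5 and 208.8 CPM in mTECs. Dcn was most of that sum in every library but mTEC 2. The fibroblast receptors Pdgfra and Pdgfrb were at 3.94, 0.962, 3.43 and 2.37 CPM in cTECs and 1.44 and 0.744 CPM in mTECs and at 6.23, 8.81, 6.43 and 2.20 CPM in cTECs and 12.8 and 18.6 CPM in mTECs, neither of which passed. The part of these cells in the results on class II, chemokines and matrix was not tested.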

How the data were processed

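RNA from 4 wild-type cTEC and 2 wild-type mTEC libraries was sequenced as paired ends after SMART-Seq v4 amplification and Nextera XT library preparation, per the labels' protocols. The authors deposited whole-number read counts per gene, made with featureCounts on mm10 per the submitters' processing notes. Neither the aligner nor the handling of reads with several matches is given in the sources used here. The amplification kit does not mark strand, so overlapping and antisense genes cannot be told apart, and near-identical copies (prolactin, kallikrein, urinary protein, class I and II, chemokine and hemoglobin families) are uncertain. Some results are not reported here. A series-wide table with 8 columns was not used, and genes without a symbol in the reference table (0.944 to 1.683% of the counts per library) were kept under their Entrez identifiers.

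Genes with at least 1 CPM in at least 2 of 6 libraries entered the robust quasi-likelihood F test of edgeR 4.0.16 (R 4.3.3), two-sided, on TMM-scaled libraries, with Benjamini-Hochberg adjustment over 17792 genes and 4 residual degrees of freedom. CPM values are counts divided by the TMM-scaled library total, and log2 CPM values carry a prior count of 2. Alternatives were DESeq2 1.42.0, limma-voom 3.58.1, other scalings and filters, each library left out, and a replicate block. The script was tested on simulated counts with known changes.

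Genes were named by rule: among called genes without overlap whose average log2 CPM reached 3, the 8 per direction with the largest fold change, the widest gap or the largest CPM difference, the 4 per direction at 0 in the other group, and up to 4 called members per direction and 2 others per list. Genes outside the rule were chosen after their values were seen. The 46 lists held 941 genes, of which 923 were found. Members and lists were chosen with earlier results of these data known. Promoters came from RefSeq (GRCm38.p6). Figures were drawn with matplotlib 3.10.9.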

Additional observations from a re-analysis of the deposited data

Results flagged for a closer look

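In 224 groups of 4 cTEC values (named genes and list sums), the highest or lowest library was looked for whose gap to the next exceeded Dixon's critical value for 4 samples. This held for 23. Chance gives about 1 in 20 for independent, normally distributed values. Here CPM was not logged, some genes were named after their values were seen, and list sums hold some of the named genes. The share is thus no measure against chance. In 16 of these the library was cTEC 1, in 2 cTEC 2, in 4 cTEC 3 and in 1 cTEC 4. The mTEC group, with 2 libraries, was not looked at in this way.

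For medullary and immune genes cTEC 1 was the high library. It had 65.69 CPM of Ccl22, with 2.587 to 3.85 CPM in the other cTECs. Cd86 was at 20.9 CPM against 0.8806 to 1.852, Cd70 at 18.46 against 2.073 to 3.377, Tnf at 15.53 against 1.596 to 3.332 and Tnfsf9 at 30.34 against 7.244 to 10.74 CPM. H2-Oa was at 186.8 CPM against 55.04 to 57.57, and Ctss at 101.3 against 40.63 to 49.31 CPM. The secreted products Calcb (107.4 CPM), Sst (5.152 CPM) and Bpifa2 (0.5725 CPM) were also highest there, as were Dhh (8.731 CPM), Igfbp6 (7.872 CPM), Krt24 (0.7872 CPM) and the summed steroid synthesis genes (203 CPM against 136.6 to 147.5). It was the low library for Gas1, at 533.1 CPM against 918 to 978.6, and for the summed FGF genes, at 528.2 against 763.6 to 790.8 CPM.

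The remaining values belonged to other libraries. cTEC 4 held 38640 CPM of Malat1 against 14920 to 18640. cTEC 3 was high for Pmp22 (170.4 CPM), Trp63 (715.6 CPM) and Rspo3 (0.708 CPM) and low for Tgfbr2 (65.2 CPM against 80.68 to 83.66). cTEC 2 alone had Fgb (0.5182 CPM) and was low in the sum of Hox genes (51.53 CPM against 60.54 to 62.25).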

How the results depend on the processing

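Leaving out each library in turn gave 646 to 6669 called genes, 280 to 3389 called higher, 366 to 3280 called lower and 77 to 480 called list members. Of 164 called genes named in the text, 64 kept their call in all 6 of these fits, and 99 lost it without mTEC 2, 71 without mTEC 1, 21 without cTEC 3, 20 without cTEC 2, 11 without cTEC 4 and 0 without cTEC 1. With limma-voom 3629 genes were called higher, 57.8% of the calls against 47.8%. With DESeq2 5893 genes were called and with other scalings 4751 and 4836. With cTEC 1 as the only cTEC library, 15415 genes lay without overlap, a count that 1 library against 2 makes larger by construction and that says nothing about separation. With at least 10 counts after thinning, mTECs had 1995.2 more genes detected on average. The labels do not say that equal replicate numbers mark shared animals or days, so the libraries were not paired. Deviations of same-numbered libraries correlated at -0.154 and -0.0282. This cannot decide on pairing, since 2 mTEC libraries deviate from their mean as mirror images. A replicate block gave 1985 calls in place of 4779, 956 higher and 1029 lower, with 226 list members. The causes of these shifts were not tested. No called gene named in the text changed direction in any alternative. The uncalled Ptprc moved between -0.9702 (cTEC 1 as the only cTEC library) and 0.1058 (without cTEC 1). It was at -0.5363 without mTEC 2 and crossed 0 also without mTEC 1 (0.02623).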
